A study of Mus musculus with 8 samples.

Results

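The genes of sterol and fatty acid synthesis were examined in multipotent progenitors of mice with and without FLT3-ITD, a mutant form of the FLT3 receptor kinase in which a stretch is repeated in tandem. The set was a named list of 28 genes, of 18193 genes with a probe set of their own on the array. A gene was read from the probe set that the platform annotation assigns to it alone, or, where there were several, from the one with the highest mean over the 8 arrays. By that rule 27 members had a value, and Acat2 was not analysed here. Genes entered the test if their probe set exceeded the median of the array on 4 or more arrays, which held for 25 members and for 10762 genes in all. The other two, Tm7sf2 and Scd1, lay below the median on all 8 arrays and are given as values only. Of the 25, 22 were above the median on every array.

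All samples were bone marrow cells of female C57BL6 mice aged 8 to 10 weeks, either wild type or FLT3-ITD, with 4 arrays of each genotype. Per the labels, the cells were sorted as lineage negative cells that carried Sca-1, CD48 and c-Kit but not CD150, a gate for lympho-myeloid multipotent progenitors. No treatment is named. How the FLT3-ITD allele was made, whether mice carried 1 or 2 copies of it and whether cells of several mice were pooled are not given in the sources used here. Within each genotype the replicates are numbered 1, 2 and 3, and a further sample is numbered 1 with the tag 037, so it may repeat replicate 1. It is called replicate 037 and was counted as a separate sample. No label states that each replicate was another mouse. The p-values therefore reflect only how far these samples spread, and that spread may be technical. In sorted populations, fewer cells of a type and less RNA per cell cannot be told apart.

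Cholesterol is built from acetyl-CoA through the mevalonate pathway, whose branch point products farnesyl and geranylgeranyl diphosphate also serve to anchor signalling proteins to membranes. Squalene is made from farnesyl diphosphate and is closed and trimmed to cholesterol by the enzymes of the sterol arm. The transcription factors SREBP-1 and SREBP-2 switch on these genes, and the fatty acid genes, when membrane sterol is low. They are escorted from the endoplasmic reticulum by SCAP and held back there by INSIG proteins, and at promoters they act beside NF-Y, which binds the CCAAT box. Dividing blood progenitors need sterols and fatty acids for new membrane.

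The promoters of 3 mevalonate pathway members are shown. Hmgcs1 held the single match to the 1 form of the sterol response element searched, among the 22 members with a promoter entry. Mvd and Mvk are shown because their values did not overlap between genotypes and lay in opposite directions. Each is the 250 bases before the start of the gene, 5′ to 3′ on the strand of the gene, from RefSeq with build GRCm38.p6. Capitals mark matches to TCACNCCAC, a form of the sterol response element, and to CCAAT, on either strand (ATTGG is CCAAT on the other strand). Hmgcs1 lies at chr13:119690101-119690350 on the plus strand, Mvd at chr8:122443423-122443672 on the minus strand and Mvk at chr5:114444019-114444268 on the plus strand.
Hmgcs1: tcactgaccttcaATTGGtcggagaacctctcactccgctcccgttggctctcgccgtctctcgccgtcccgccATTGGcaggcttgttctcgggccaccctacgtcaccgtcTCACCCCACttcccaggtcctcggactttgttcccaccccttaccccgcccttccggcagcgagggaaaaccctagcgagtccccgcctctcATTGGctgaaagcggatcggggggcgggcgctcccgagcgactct
Mvd: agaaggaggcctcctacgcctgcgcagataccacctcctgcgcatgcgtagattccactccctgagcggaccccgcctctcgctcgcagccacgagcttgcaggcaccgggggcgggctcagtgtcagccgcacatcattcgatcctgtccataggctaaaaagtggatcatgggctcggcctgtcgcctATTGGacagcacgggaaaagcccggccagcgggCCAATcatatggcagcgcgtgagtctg
Mvk: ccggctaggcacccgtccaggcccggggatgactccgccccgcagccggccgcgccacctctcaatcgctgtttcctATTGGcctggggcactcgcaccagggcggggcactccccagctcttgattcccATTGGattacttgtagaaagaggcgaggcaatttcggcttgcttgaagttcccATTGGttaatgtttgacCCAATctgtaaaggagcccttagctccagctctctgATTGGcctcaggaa

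The Hmgcs1 run held 1 match to TCACNCCAC, starting at position −137 where −1 is the base before the start, and 3 CCAAT boxes. The Mvd run held 2 CCAAT boxes and the Mvk run 5, and neither held TCACNCCAC. Over windows of 300 bases, which add the 50 bases after the start, 22 members had an entry. At least 1 CCAAT box was found for 19 of these 22, against 41.1% of the 27025 genes with an entry (37.4% of all 32851 windows). At least 2 were found in a single window for 11 of the 22. By window this was 11 of the 27 windows of members, against 11.7% of all windows. TCACNCCAC was found for 1 of 22, against 1.44% of genes (1.24% of windows). In the members no match to one motif overlapped a match to the other. A match is a run of letters in a short window and not a measured binding site. No CCAAT box was found in the windows of Acaca, Acat2 and Elovl6. The CCAAT box was present in the windows of Pmvk and Mvd, which read higher in FLT3-ITD, and of Mvk, which read lower. The part of the motif in these values was not tested.

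Across the pathway no member passed the test in FLT3-ITD against wild type, at a limma adjusted p under 0.05 over all genes tested. Of all tested genes 65 passed, which is 0.604%. At an unadjusted limma p under 0.05 there were 2 members, Pmvk and Mvd, or 8% of the 25, against 9.58% of all tested genes. Values of the genotypes did not overlap for 3 members, 12% of the 25, against 6.22% of all tested genes. These were Pmvk and Mvd, higher in FLT3-ITD as were 3.77% of tested genes, and Mvk, lower as were 2.44%. FLT3-ITD had the higher mean in 16 members and the lower in 9, with 64% positive against 53.7% of all tested genes. The median difference over the members was 0.08 on the log2 scale, against 0.02 over all tested genes. Each difference below is the FLT3-ITD mean less the wild type mean in log2 units, and the value after ± is the standard error of the fit unless marked SD.

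The 95% intervals, taken gene by gene without adjustment, show the range of differences that the values of each member allow. They do not show what the test over all genes could miss. For 18 of the 25 members the interval lay within a 2-fold change in either direction, and for the other 7 it reached past 2-fold on at least one side. The interval was narrowest for Mvk, with a difference of −0.18 (−0.44 to 0.08), and widest for Fdft1, at 0.67 (−0.61 to 1.94). The median SD within wild type was 0.25 over the members and 0.25 over all tested genes; within FLT3-ITD it was 0.36 and 0.27. A difference short of the threshold does not show that the genotypes are alike.

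**Figure D1:**
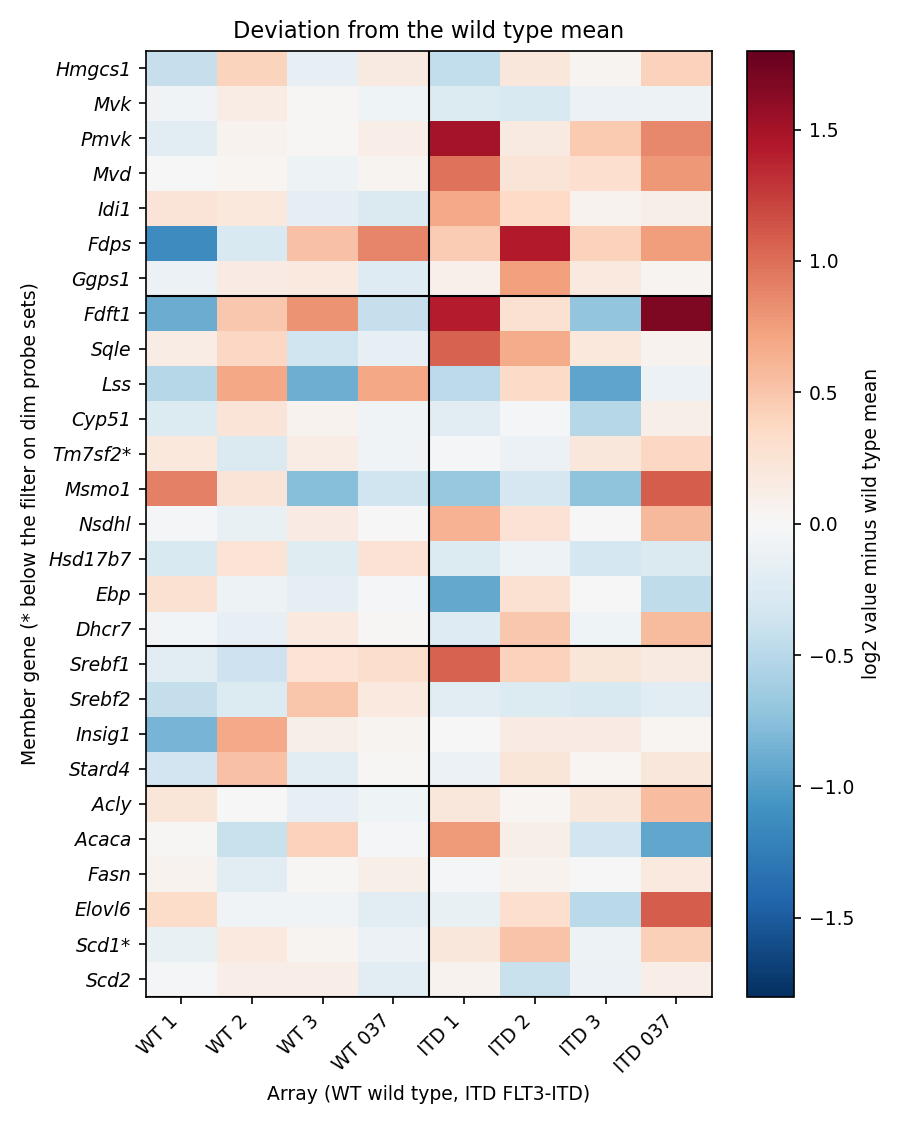
Deviation of each member (rows, in the order mevalonate, squalene and sterol, regulators, fatty acid) from its wild type mean on each of the 8 arrays (columns), on the log2 scale, red above and blue below. Pmvk and Mvd are red on all 4 FLT3-ITD arrays, most on replicates 1 and 037, while most other rows mix both colours within a genotype.

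**Figure D2:**
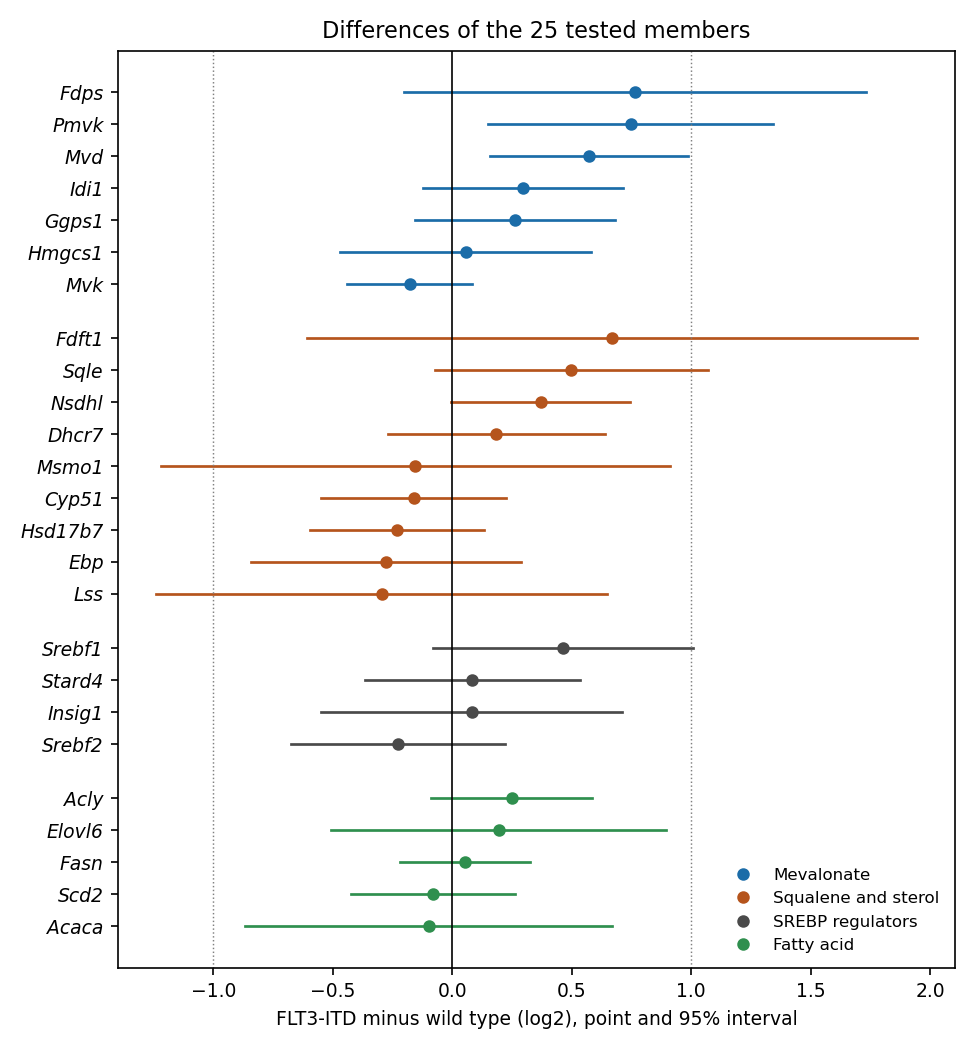
Difference of FLT3-ITD minus wild type (log2, horizontal axis) for the 25 tested members, grouped by arm of the pathway, with 95% intervals from the limma fit as lines; dotted lines mark a 2-fold change. The intervals of Pmvk and Mvd lie above 0, and those of the other members include 0.

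In the mevalonate arm 6 of 7 tested members had the higher mean in FLT3-ITD, and none passed the test. The arm's median difference was 0.30 and stayed between 0.21 and 0.38 under the other settings tried. Its mean level, over the same 7 genes, was 7.85 to 8.19 on the wild type arrays and 8.28 to 8.52 on the FLT3-ITD arrays, without overlap. The means of 2 of the companion lists described further on did not overlap either. They were 8.01 to 8.06 against 8.11 to 8.27 for further fatty acid genes, and 8.11 to 8.21 against 8.23 to 8.46 for prenylation genes. Of the 7 mevalonate genes Fdps spread most over the arrays, from 5.35 to 7.91, with overlap between genotypes. The arm's mean level was not taken without Fdps, so its separation may rest on that gene. In the mevalonate arm Pmvk, Mvd and Mvk encode the 3 consecutive enzymes that turn mevalonate into isopentenyl diphosphate, by phosphorylating it in 2 steps and then removing a carboxyl group.

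Pmvk, phosphomevalonate kinase, read 8.09, 8.34, 8.30 and 8.40 in wild type replicates 1, 2, 3 and 037, and 9.78, 8.44, 8.75 and 9.14 in the same order in FLT3-ITD. Every FLT3-ITD array lay above every wild type array, with FLT3-ITD replicate 1 far above the rest and replicate 2 only just above wild type. The means were 8.28 ± 0.13 and 9.03 ± 0.58 (SD, n = 4 each). They differed by 0.75 ± 0.26, which is 1.68-fold (95% interval 1.11 to 2.54), with limma adjusted p = 0.400. The exact two-sided permutation p was 0.0286, the smallest that 4 against 4 allows. Any gene without overlap has this value, Mvd and Mvk included, so it adds nothing to the lack of overlap. Without FLT3-ITD replicate 1 the difference was 0.50.

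Mvd, mevalonate diphosphate decarboxylase, read 6.41, 6.44, 6.32 and 6.47 in wild type and 7.39, 6.64, 6.71 and 7.19 in FLT3-ITD. The wild type arrays lay close together and all FLT3-ITD arrays lay above them, again with replicates 1 and 037 highest. The difference was 0.57 ± 0.18, or 1.49-fold, from 6.41 ± 0.06 to 6.98 ± 0.36 (SD, n = 4 each; limma adjusted p = 0.334). Its other probe set gave 0.68 with overlap, since FLT3-ITD replicates 2 and 3 lay among the wild type values and replicate 1 alone, at 8.17, stood far above them.

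Mvk, mevalonate kinase, read 8.05, 8.24, 8.13 and 8.03 in wild type and 7.86, 7.84, 8.01 and 8.02 in FLT3-ITD. All FLT3-ITD arrays lay below all wild type arrays, but by a very narrow gap, and the groups overlapped once arrays were centred on their medians. The difference was −0.18 ± 0.12 (limma adjusted p = 0.693), and its other probe set read 0.11 higher in FLT3-ITD.

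Pmvk and Mvd were highest in FLT3-ITD replicates 1 and 037, and each of these arrays differed from the rest on a measure over the whole array or its controls. FLT3-ITD replicate 1 correlated with the other 7 arrays at 0.947 to 0.959 over probe sets, and those 7 correlated among themselves at 0.964 to 0.981. FLT3-ITD replicate 037 had the largest difference between 3′ and 5′ probe sets of the Gapdh control, a measure that follows the integrity of the RNA, with 2.99 where the other arrays had 1.82 to 2.29. With both arrays left out the difference was 0.31 ± 0.17 for Pmvk and 0.27 ± 0.14 for Mvd. That the 2 remaining FLT3-ITD arrays lay above all wild type arrays follows from the lack of overlap over all arrays. What part these array differences had in the values was not tested. These arrays were also the highest of all 8 for 7 and 8 of the 25 members, 28% and 32%, against 18.2% and 18.0% of all tested genes.

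The remaining mevalonate members overlapped between genotypes. Hmgcs1, which makes HMG-CoA and carries the sterol response element match shown above, had a wild type mean of 9.96 (SD 0.36) and an FLT3-ITD mean of 10.01 (SD 0.36), for a difference of 0.06 ± 0.23. Its 4 bright probe sets all had positive differences, from 0.06 to 0.41. Idi1, the isomerase of isopentenyl diphosphate, differed by 0.30 ± 0.18, with 0.34 in its other probe set. Fdps, farnesyl diphosphate synthase, differed by 0.76 ± 0.43, the largest mean difference among the 25 tested members, but its wild type arrays ran from 5.35 to 7.36 and its FLT3-ITD arrays from 6.90 to 7.91. Ggps1, which makes geranylgeranyl diphosphate, differed by 0.26 ± 0.18. Its 4 probe sets did not read alike: 2 were higher in FLT3-ITD, by 0.26 and 0.35, and 2 lower, at −0.48 and −0.42, the last without overlap between genotypes.

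The squalene and sterol arm was split, with 4 positive and 5 negative differences among 9 tested members and a median of −0.15, which turned to 0.15 without wild type replicate 1, to 0.02 without FLT3-ITD replicate 1 and to 0.03 without FLT3-ITD replicate 3. Nsdhl, a dehydrogenase in the removal of methyl groups from the sterol ring, read 6.10, 5.98, 6.27 and 6.12 in wild type and 6.74, 6.38, 6.12 and 6.70 in FLT3-ITD. FLT3-ITD replicate 3 lay among the wild type arrays and the other 3 lay above them, for a difference of 0.37 ± 0.16 (limma adjusted p = 0.527). Sqle, squalene epoxidase, an oxygen-requiring control point of the arm, differed by 0.50 ± 0.25, with 7.21 to 7.95 in wild type and 7.63 to 8.64 in FLT3-ITD. Fdft1, squalene synthase, differed by 0.67 ± 0.56, with FLT3-ITD arrays spread from 6.69 to 9.07. Its 3 other probe sets differed by 0.09 to 0.15.

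Hsd17b7, a ketone reductase of the sterol ring, read 7.08, 7.60, 7.14 and 7.62 in wild type and 7.11, 7.26, 7.04 and 7.09 in FLT3-ITD. Wild type replicates 2 and 037 stood above the other 6 arrays, and the difference was −0.23 ± 0.16 (limma adjusted p = 0.724). The other Hsd17b7 probe set above the filter did not show this split. It read 7.52, 6.60, 6.27 and 5.99 in wild type, and differed by −0.19. Lss, which closes squalene to lanosterol, showed a split by array similar to that of the Hsd17b7 probe set of highest mean. Its probe set of highest mean read 8.19, 9.39, 7.81 and 9.39 in wild type and 8.22, 9.05, 7.74 and 8.59 in FLT3-ITD, so that replicates 2 and 037 were the highest in either genotype. A further probe set of Lss gave 7.38, 8.71, 7.45 and 8.60 in wild type and 7.70, 8.43, 7.60 and 8.21 in FLT3-ITD, with the same arrays on top. The genotype difference of Lss, −0.30 ± 0.42, was smaller than this spread between arrays.

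Of the rest of this arm, Ebp, a sterol isomerase, differed by −0.28 ± 0.25, Cyp51, the lanosterol demethylase, by −0.16 ± 0.17, and Dhcr7, which performs the last reduction to cholesterol, by 0.18 ± 0.20. The other probe sets of Cyp51 gave 0.13 and 0.52. Msmo1, a methylsterol oxidase, differed by −0.15 ± 0.47 and spread from 5.69 to 7.36 in wild type and from 5.74 to 7.56 in FLT3-ITD. Tm7sf2, a sterol reductase below the filter, read 3.92 to 4.37 in wild type and 4.08 to 4.55 in FLT3-ITD.

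The regulators overlapped between genotypes, with 3 positive differences, 1 negative and a median of 0.08, which was −0.11 without wild type replicate 1. Srebf1, which encodes SREBP-1, read 6.62, 6.45, 7.05 and 7.13 in wild type and 7.88, 7.22, 7.03 and 6.98 in FLT3-ITD. FLT3-ITD replicates 1 and 2 stood above all wild type arrays and replicates 3 and 037 fell among them, for a difference of 0.46 ± 0.24 (95% interval −0.08 to 1.01; limma adjusted p = 0.605). Srebf2, which encodes SREBP-2, the form most tied to sterol genes, read 7.87, 8.05, 8.79 and 8.46 in wild type and 8.08, 8.05, 8.02 and 8.10 in FLT3-ITD. The FLT3-ITD arrays lay close together, inside the wild type range, and the difference was −0.23 ± 0.20 (limma adjusted p = 0.778). The other Srebf2 probe set did not show this placement, with 7.53 to 7.99 in wild type and 7.24 to 8.08 in FLT3-ITD. There the SD was 0.21 in wild type and 0.36 in FLT3-ITD, and the difference was −0.17.

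Insig1, an SREBP target whose product retains the SCAP-SREBP complex, read 8.05, 9.57, 8.99 and 8.93 in wild type and 8.88, 9.04, 9.03 and 8.92 in FLT3-ITD. The wild type extremes, replicates 1 and 2, bracketed every FLT3-ITD array. The SD was 0.63 in wild type and 0.08 in FLT3-ITD, and the difference in mean was 0.08 ± 0.28 (limma adjusted p = 0.957), or −0.20 without wild type replicate 1. Stard4, a carrier of sterol between membranes, had the same extremes in wild type, 8.43 in replicate 1 and 9.31 in replicate 2, and differed by 0.08 ± 0.20. The other probe sets of Stard4 read higher in FLT3-ITD by 0.34 and 0.56, with overlap. Hmgcs1 also had its wild type low in replicate 1, at 9.54, and its high in replicate 2, at 10.36. Over all 25 members wild type replicate 1 was the lowest array for 6, or 24%, against 14.1% of all tested genes, and the median deviation of the 4 regulators from their wild type means was −0.39 on that array.

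**Figure D3:**
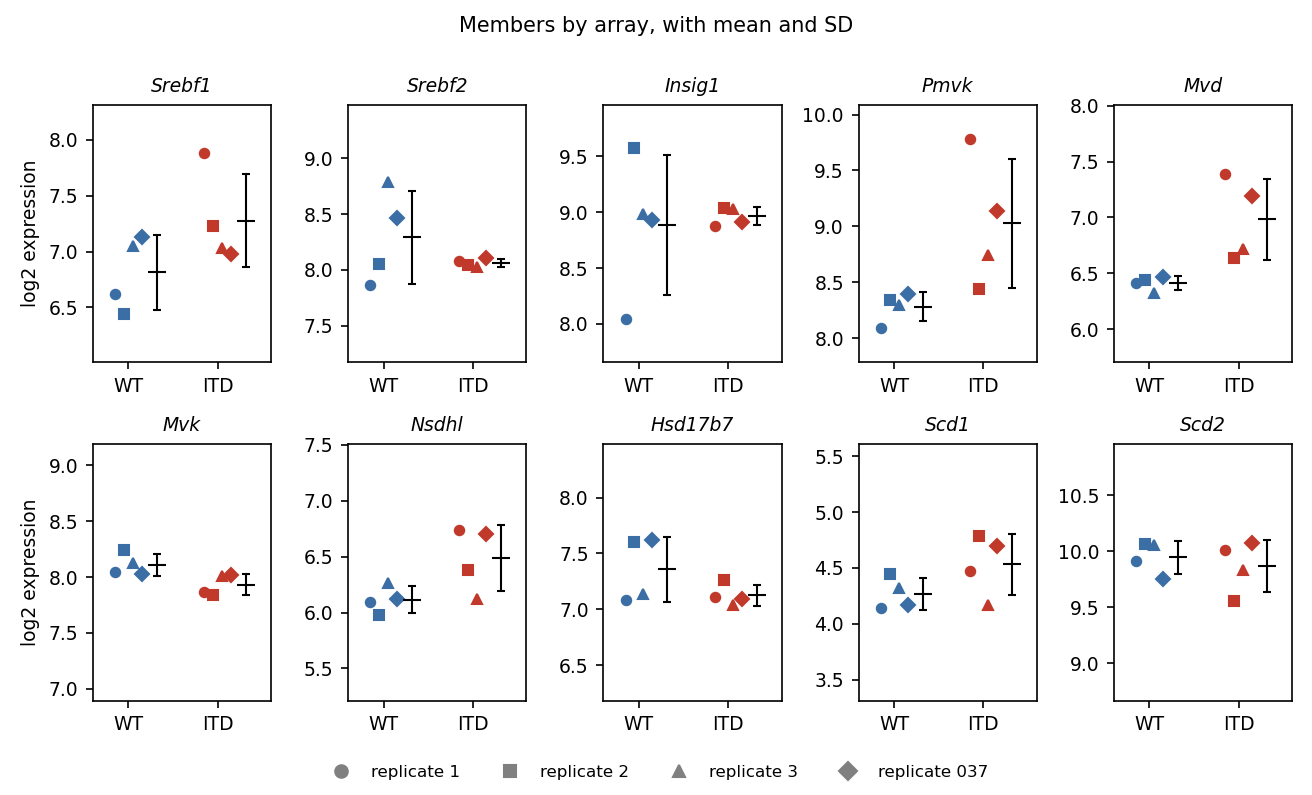
Log2 expression (vertical axes, each panel on its own range) on each array for 10 members, wild type in blue and FLT3-ITD in red, with symbols for the replicates and black bars for the mean and SD (n = 4). Pmvk and Mvd separate by genotype without overlap, and Mvk does so by a narrow gap. On the probe sets shown, those of highest mean, Srebf2 and Insig1 are tightly placed in FLT3-ITD inside a wider wild type range.

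Of the fatty acid members 3 had positive and 2 negative differences among 5 tested, with a median of 0.05 that was −0.0091 without wild type replicate 2. Fasn, fatty acid synthase, had a mean of 8.07 (SD 0.13) across the wild type arrays and 8.12 (SD 0.09) across the FLT3-ITD arrays, n = 4 each. Its 95% interval ran from 0.859-fold to 1.25-fold. Acly, which supplies cytosolic acetyl-CoA from citrate, differed by 0.25 ± 0.15, and by 0.06 and 0.08 in its other 2 bright probe sets. Acaca, acetyl-CoA carboxylase, which commits acetyl-CoA to fatty acids, differed by −0.10 ± 0.34. Its FLT3-ITD arrays ran from 8.29 to 9.98, and its second probe set gave 0.33. Elovl6, an elongase of saturated fatty acids, differed by 0.19 ± 0.31. Another of its probe sets read higher in FLT3-ITD by 0.48 without overlap, short of the threshold over all probe sets (limma adjusted p = 0.330).

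The desaturase genes Scd1 and Scd2, whose products place the double bond in oleate, lay on opposite sides of the filter on dim probe sets. Scd2 read 9.92, 10.06, 10.06 and 9.75 in wild type and 10.01, 9.55, 9.84 and 10.07 in FLT3-ITD, above the median on all arrays. The genotypes overlapped, with a difference of −0.08 ± 0.15 (limma adjusted p = 0.917). The 2 further Scd2 probe sets gave 0.02 and −0.02. Scd1 read 4.14, 4.44, 4.32 and 4.17 in wild type and 4.47, 4.78, 4.17 and 4.70 in FLT3-ITD, below the median on every array in both of its probe sets. These dim values overlapped and were not tested. Of 9 marker genes of adipocytes and stroma, 6 were also below the median on all arrays, Adipoq and Lpl among them.

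The members had 63 probe sets in all, of which 52 passed the filter and none passed the test over 19208 probe sets, where 0.416% of probe sets did. At an unadjusted limma p under 0.05 there were 4 of the 52, against 9.06% of probe sets. Genotypes did not overlap in 5 of the 52, with 3 higher and 2 lower in FLT3-ITD, against 6.02% of all probe sets tested. Where a member had at least 2 probe sets above the filter, which was so for 16 members, they shared a sign in 11 and differed in sign in 5: Mvk, Ggps1, Cyp51, Acaca and Scd2.

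**Figure D4:**
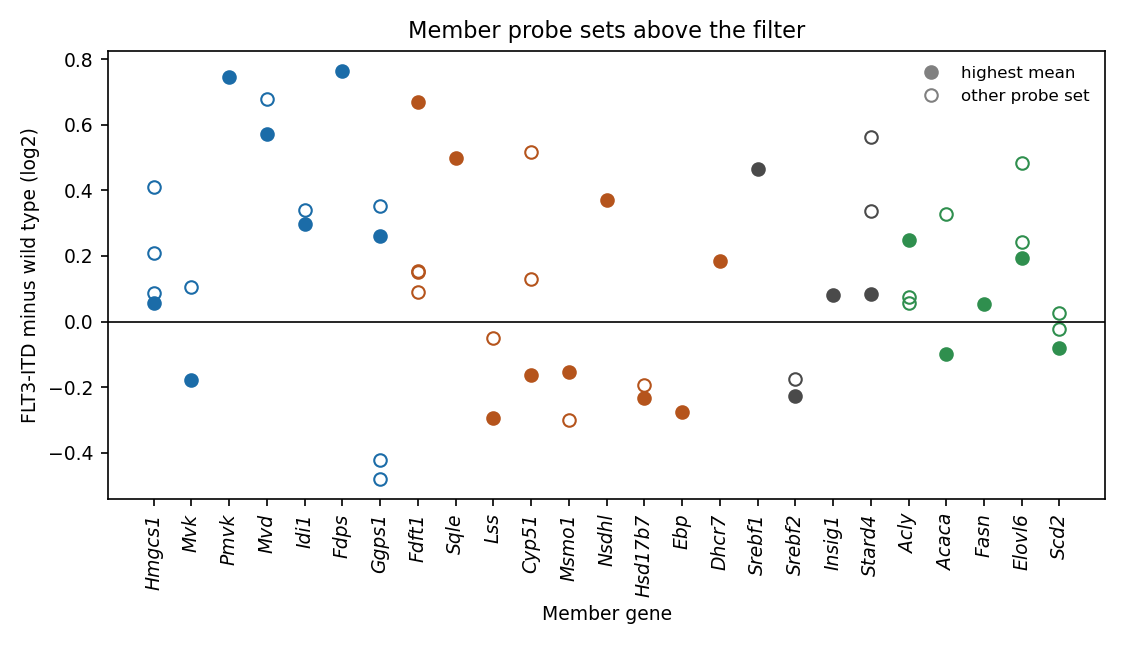
Difference of FLT3-ITD minus wild type (log2, vertical axis) for each of the 52 member probe sets above the filter, by gene and coloured by arm as in the plot of differences; filled points are the probe sets of highest mean and open points the others. Ggps1 has points at 0.35 and at −0.48, while those of Idi1 and Scd2 lie close together.

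Other genes of sterol and fatty acid handling were read from 6 further lists. Of their 54 tested genes none passed the test, 8 had an unadjusted limma p under 0.05 against 9.58% of all tested genes, and genotypes did not overlap in 5 against 6.22%. Among further sterol enzymes and SREBP processing genes all 6 tested differences were positive, with a median of 0.11. Scap, the sterol-sensing escort of SREBP, read 7.05, 7.32, 6.94 and 7.09 in wild type and 7.53, 7.51, 7.54 and 7.53 in FLT3-ITD. The FLT3-ITD arrays lay close together and above all wild type arrays, a difference of 0.43 ± 0.12 (limma adjusted p = 0.249). Its other probe set, below the filter, read −0.11. Insig2, a second retention factor, differed by 0.29 ± 0.20.

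In sterol uptake, transport and storage, 4 of 10 tested differences were positive, with a median of −0.12. Vldlr, a receptor that takes up lipoproteins rich in triglyceride, read 10.22, 10.54, 10.47 and 9.94 in wild type and 7.29, 8.88, 9.83 and 9.08 in FLT3-ITD. All FLT3-ITD arrays lay below all wild type arrays and replicate 1 lay lowest, with a difference of −1.53 ± 0.46 (limma adjusted p = 0.304). All 6 probe sets of Vldlr read lower in FLT3-ITD, by −0.72 to −1.99. As the mean over them the difference was −1.36 ± 0.24 and passed the test (limma adjusted p = 0.0318), the single companion gene to pass under any setting tried. Nceh1, which hydrolyses stored cholesterol esters, read 8.34, 8.42, 8.10 and 8.72 in wild type and 6.91, 7.62, 7.71 and 7.99 in FLT3-ITD, without overlap, a difference of −0.84 ± 0.24 (limma adjusted p = 0.257).

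The other companion lists also held no gene past the test. For LXR receptors and efflux genes all 4 tested differences were negative, with a median of −0.11, Abca1 at −0.32 ± 0.57 and Abcg1 at −0.18 ± 0.26. Each of these also had 1 probe set of positive difference, 0.33 for Abca1 and 0.02 for Abcg1. Further fatty acid genes had 10 of 17 positive and a median of 0.07. Among these the elongase gene Elovl7 differed by 1.33 ± 0.50, with overlap through wild type replicate 3 and FLT3-ITD replicate 1, and Acsl3, an acyl-CoA synthetase, by −0.45 ± 0.17 without overlap. Fatty acid oxidation had 6 of 9 positive, with a median of 0.24, Slc25a20, the acylcarnitine carrier of mitochondria, at 0.50 ± 0.22 and Cpt2 at 0.39 ± 0.22. Genes that use the mevalonate products, for prenylation and related ends, had 6 of 8 positive with a median of 0.21. Pggt1b, a subunit of a geranylgeranyl transferase, differed by 0.76 ± 0.29 and Fntb, a farnesyl transferase subunit, by −0.23 ± 0.12. In 10 proliferation genes, a set added because dividing cells make membrane, 9 were tested, 4 were positive and the median was −0.05, with Plk1 at 0.53 ± 0.18 and Ccnb2 at 0.42 ± 0.26.

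**Figure D5:**
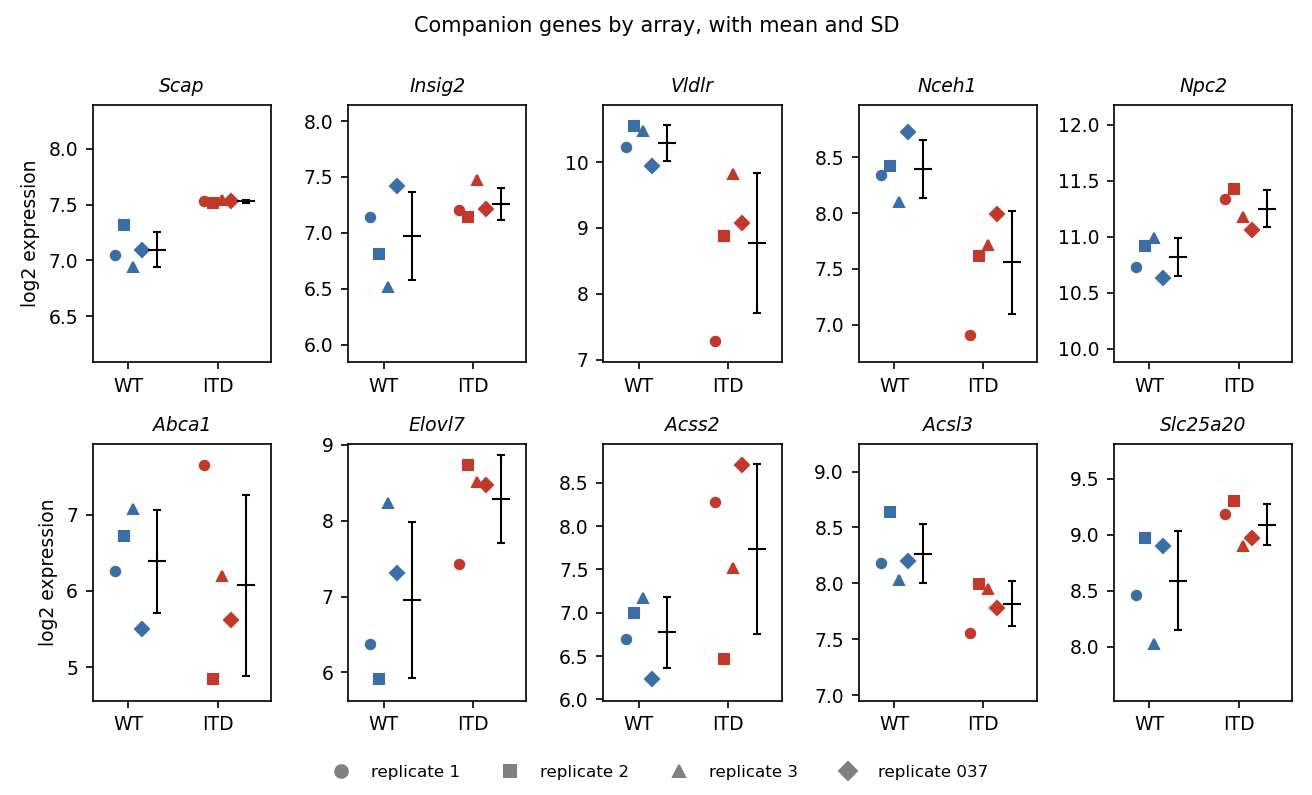
Log2 expression (vertical axes, each panel on its own range) on each array for 10 companion genes, wild type in blue and FLT3-ITD in red, with symbols for the replicates and black bars for the mean and SD (n = 4). Scap and Npc2 lie higher and Vldlr, Nceh1 and Acsl3 lower in FLT3-ITD without overlap; Npc2 and Acss2 were added after their values were seen.

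Npc2, a lysosomal sterol carrier, read 10.63 to 10.99 in wild type and 11.06 to 11.43 in FLT3-ITD, a difference of 0.43 ± 0.14 (limma adjusted p = 0.338). Its 4 probe sets did not share a sign, with 3 positive and 1 negative over a range of −0.44 to 1.74. Acss2, which makes acetyl-CoA from acetate, read 8.27 and 8.70 in FLT3-ITD replicates 1 and 037, the arrays on which Pmvk and Mvd were highest, and 6.47 and 7.51 in replicates 2 and 3. In wild type it ran from 6.23 to 7.17. The difference was 0.97 ± 0.45 (limma adjusted p = 0.552), and of its 3 probe sets 1 was negative, at −0.17.

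Among genes for surface proteins of the sorted cells, Cd48 was higher in FLT3-ITD with a difference of 1.06 ± 0.13 and a limma adjusted p of 0.00740. Flt3 was lower, at −1.17 ± 0.20 with a limma adjusted p of 0.0406. Slamf1, which encodes CD150, was below the median on all arrays. Markers of other cells moved with genotype. In dendritic cell markers 4 of 6 tested passed the test, all higher in FLT3-ITD. These were the MHC class II genes H2-Aa, H2-Ab1 and H2-Eb1 and the invariant chain gene Cd74. Zbtb46 read 2.38 higher without passing (limma adjusted p = 0.124), and Siglech read −0.02. Itgax, Xcr1 and Batf3, not tested, read higher by 1.24, 1.86 and 0.22, Batf3 with overlap. The mean over all 9 was 6.31 to 6.44 in wild type and 7.99 to 9.05 in FLT3-ITD. In erythroid markers 2 of 4 tested passed the test, both lower in FLT3-ITD, with means over 6 of 6.60 to 7.15 and 5.61 to 6.22. In monocyte and macrophage markers 1 of 4 tested, Ccr2, passed the test, higher by 3.62. Means over 8 were 5.64 to 6.01 in wild type and 6.08 to 6.42 in FLT3-ITD. They were not taken without Ccr2, so their separation may rest on that gene. Csf1r, Cd68 and Marco read higher by 0.96, 0.26 and 0.16, short of the threshold. Of the untested markers Adgre1 read 0.27 higher, and Ms4a7, C1qa and C1qb read −0.17, −0.43 and −1.53. Neutrophil markers had no call in 5 tested, 3 with an unadjusted limma p under 0.05, and means over 7 of 7.02 to 8.42 and 5.60 to 7.81. Markers of B cells, T and NK cells, megakaryocytes, mast cells and basophils, and adipocytes and stroma had none past the test by limma in 2, 3, 2, 2 and 3 tested. An unadjusted p under 0.05 was reached by 0, 0, 0, 1 and 1 of them, and 4 of 6, 4 of 7, 2 of 6, 3 of 5 and 6 of 9 lay below the median on all arrays. The mean over the 7 T and NK markers was 5.62 to 5.74 in wild type and 5.77 to 6.15 in FLT3-ITD, without overlap. All 3 tested T and NK markers had positive differences. The means of the other lists named here with them overlapped between genotypes. The part of these cell types in the values of the sterol genes was not tested.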

How the data were processed

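Per the labels' protocols, RNA came from a Trizol extraction and was amplified with a NuGEN system before labelling; each sample had 1 array. The authors deposited log2 values for each probe set, computed with RMA per the submitters' processing notes. RMA corrects background, brings arrays to one distribution and summarises probes. The sources used here give no version of it. Array medians were 5.98 to 6.05. The number of arrays limits the precision. The table held 45101 probe sets; the platform annotation of 2016 gave 1 gene to 34945, several to 932 and none to 9160, and 64 were controls. Symbols were updated through Entrez IDs with a RefSeq table of GRCm38.p6 for 34741.

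FLT3-ITD was compared with wild type with limma 3.58.1 in R 4.3.3, without covariates, and p-values were adjusted by Benjamini-Hochberg over all tested genes. Members, arms, companion and marker lists were chosen with earlier results of these data known, so lists are given as counts and medians without a test. Named for values were the 3 regulators Srebf1, Srebf2 and Insig1, members without overlap, the 3 of smallest p in each direction, both Scd genes, and the 2 of smallest p in each companion list. Per-array values of other genes were chosen after they were seen. Alternatives changed the normalization, filter, probe set rule, fit, replicate block and samples. The fit was tested on simulated data for this comparison (10762 genes): of 50 genes at each size it recovered 4% of those changed by 0.5, 60% at 1, 92% at 2 and 100% at 3, with 3 false calls. Figures were drawn with matplotlib 3.10.9.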

Additional observations from a re-analysis of the deposited data

How the results depend on the processing

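Under 19 other settings no member passed the test, with limma adjusted p of at least 0.269, and no other probe set of a member passed under the 16 run for them. The members without overlap numbered 1, Pmvk, when genes were read as means over their probe sets, and 2 to 4 otherwise. Leaving out single samples gave 3 to 4. Groups separate more easily with fewer arrays, and the shares over all tested genes under these settings are not given here. These counts therefore do not show that the main count is stable. Under that mean over probe sets the sterol arm's median was 0.16, and 1 companion gene, Vldlr, passed. The sterol arm's median lay between −0.22 and 0.15 when single samples were left out, and was positive without wild type replicate 1 (0.15), FLT3-ITD replicate 1 (0.02) or FLT3-ITD replicate 3 (0.03). The fatty acid arm's median was 0.12 without the filter, where Scd1 enters, and −0.088 with FLT3-ITD replicates 1 and 037 left out together, a setting chosen after seeing the data.

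Signs turned for 12 members, 19 times in 473 values, and the new value was within its standard error in 18. As means over probe sets Ggps1 was −0.072, Cyp51 0.16 and Acaca 0.11. With FLT3-ITD replicates 1 and 037 left out together Fdft1 was −0.21, Ebp 0.13 and Elovl6 −0.088. With replicates 1 and 037 averaged Insig1 was −0.028. Leaving out single samples gave −0.082 to 0.22 for Hmgcs1, −0.57 to 0.15 for Msmo1, −0.20 to 0.31 for Insig1, −0.031 to 0.26 for Stard4, −0.39 to 0.18 for Acaca, −0.0091 to 0.089 for Fasn, −0.10 to 0.42 for Elovl6 and −0.15 to 0.025 for Scd2. The cause was not tested.

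With the replicate number as a block (replicate block), 22 genes passed against 65, and 0 members; same-numbered samples correlated at 0.03, 0.04, 0.06 and 0.11 in their deviations, so the numbers were not taken to pair them. Genes past the test numbered 25 with the filter on all 8 arrays and 30 to 59 when single samples were left out, and 31 with FLT3-ITD replicates 1 and 037 left out together.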
